A study of Mus musculus with 6 samples.

Results

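The SR and hnRNP splicing factors were taken as the protein-coding genes whose symbol begins with Srsf and a digit or with Hnrnp. Among 54532 genes counted, 31 met this rule, 11 SR genes and 20 hnRNP genes, and 30 of them had enough counts to be tested in BV2 cells with a SMEK1 knockdown against BV2 cells labelled WT. The exception was Srsf12, a relative of Srsf10, which had 0 counts in every library. That allows up to 3 counts over a group, or 0.0470 CPM (counts scaled to library size) in knockdown cells and 0.0574 CPM in WT. A further 2 rows share the names but are processed pseudogenes, Hnrnpa1l2-ps2 and Hnrnpa1l2-ps, with 3 counts between them, and were left out.

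SR proteins carry RNA-recognition motifs and a tail rich in arginine-serine dipeptides. They bind exonic enhancers and recruit the U1 and U2 small nuclear ribonucleoproteins (snRNPs) to splice sites, and kinases and phosphatases that act on the tail set their location and activity. The hnRNP proteins coat nascent transcripts, often silence exons in opposition to SR proteins, and also act in mRNA export, stability and translation. Many genes of both families limit their own output by splicing in a poison exon or intron that sends the transcript to nonsense-mediated decay.

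BV2 is an immortalised mouse microglial line. In 3 libraries, knockdown A, B and C, SMEK1 was knocked down (gene Ppp4r3a), which regulates protein phosphatase 4 as a subunit, and 3 libraries, WT A, B and C, served as the comparison. Both groups grew in DMEM with fetal bovine serum and penicillin-streptomycin, and no stimulus is labelled. How the knockdown was made, whether its cells are 1 clone, and whether the WT cells carried a control construct is not stated in the labels, although the series' design text names both sets of cells as derivatives. Separate cultures are not recorded within a group, so the p-values rest on the spread between these libraries alone, which may be technical, and other differences between the cultures cannot be told apart from the knockdown.

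Library totals were 18627425 to 21131557 counts in knockdown cells and 18036591 to 18708438 in WT. Ppp4r3a was counted 48, 122 and 94 times in knockdown A, B and C, against 335, 227 and 260 in WT A, B and C. Microglial genes were abundant (12 markers, summed 3423 to 3728 CPM in knockdown cells and 3905 to 4288 CPM in WT), with 2 of 10 tested markers higher (Trem2 and Tmem119) and 5 lower, Csf1r and Cd68 among them. P2ry12 had 0 counts in each knockdown library and 2, 1 and 0 in WT, and Cx3cr1 had 11, 10 and 8 counts in knockdown cells and 7, 1 and 4 in WT. Summed markers of fibroblasts, neurons and astrocytes stayed at or under 1.81 CPM in every library, with Col1a2, Pdgfra, Dcn, Lum, Snap25, Syt1, Map2, Aqp4 and Aldh1l1 at 0, and those of oligodendrocytes reached 7.15 to 7.26 CPM in knockdown cells and 2.53 to 2.81 CPM in WT, with Mog and Mobp at 0. In bulk RNA, fewer cells of a type and less RNA per cell cannot be told apart.

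Related genes of both families moved in opposite directions, and the promoters of 2 such pairs are shown because the promoter is where their transcription starts. Each sequence is the 250 bases before the transcription start, from RefSeq on build GRCm38.p6, read 5′ to 3′ on the strand of the gene. Capitals mark matches on either strand to the E-box letters CACGTG, to the CCAAT box, to TATAAA as in a TATA box, to GGGCGG as in a GC box, to CCGGAA as bound by ETS factors, and to TGACG. Srsf6 lies at chr2:162931258-162931507 (plus strand), Srsf5 at chr12:80945249-80945498 (plus strand), Hnrnpa1 at chr15:103240147-103240396 (plus strand) and Hnrnpa0 at chr13:58128557-58128806 (minus strand).
Srsf6 promoter: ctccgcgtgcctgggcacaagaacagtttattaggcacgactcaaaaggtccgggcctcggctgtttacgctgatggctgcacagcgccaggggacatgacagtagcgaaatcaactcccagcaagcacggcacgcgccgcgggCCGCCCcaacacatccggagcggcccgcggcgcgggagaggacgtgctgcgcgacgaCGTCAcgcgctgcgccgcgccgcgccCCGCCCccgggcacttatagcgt
Srsf5 promoter: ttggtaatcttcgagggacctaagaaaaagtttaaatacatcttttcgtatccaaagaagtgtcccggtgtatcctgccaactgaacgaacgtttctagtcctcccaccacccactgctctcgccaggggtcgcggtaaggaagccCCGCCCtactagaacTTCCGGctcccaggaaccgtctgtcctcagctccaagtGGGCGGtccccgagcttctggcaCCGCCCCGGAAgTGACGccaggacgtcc
Hnrnpa1 promoter: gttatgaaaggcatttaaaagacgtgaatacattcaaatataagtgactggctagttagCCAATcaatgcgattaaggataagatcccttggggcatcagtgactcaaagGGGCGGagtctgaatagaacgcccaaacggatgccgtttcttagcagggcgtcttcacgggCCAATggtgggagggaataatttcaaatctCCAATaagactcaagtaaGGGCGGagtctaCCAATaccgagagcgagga
Hnrnpa0 promoter: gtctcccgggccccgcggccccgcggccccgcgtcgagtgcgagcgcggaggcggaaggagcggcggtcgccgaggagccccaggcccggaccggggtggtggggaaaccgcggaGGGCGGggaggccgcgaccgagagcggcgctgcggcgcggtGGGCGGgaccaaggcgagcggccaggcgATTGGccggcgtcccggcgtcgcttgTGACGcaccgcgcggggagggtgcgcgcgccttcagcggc

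The stretch before Srsf6 held 2 matches to GGGCGG and 1 to TGACG, and the stretch before Srsf5 held 3 to GGGCGG, 2 to CCGGAA, 1 of them overlapping a GGGCGG match, and 1 to TGACG. Hnrnpa1 had 4 matches to CCAAT and 2 to GGGCGG, while Hnrnpa0 had 1 to CCAAT, 2 to GGGCGG and 1 to TGACG. Over whole RefSeq windows, from 250 bases before to 50 after the start, 29 of the 31 genes had an entry, with Hnrnpll and Hnrnpul2 missing. TGACG, the core of the site known for CREB and ATF factors, stood in 17 of these 29 windows (58.6%), in 33.4% of the 8966 windows of genes tested and in 23% of all 20507 windows. GGGCGG, the core of the GC box known for Sp1, stood in 79.3% of the members' windows, 65.7% of windows of genes tested and 42.8% of all windows. For CCAAT the shares were 55.2%, 39.2% and 38.2%, for CCGGAA 41.4%, 30.9% and 17.8%, and for TATAAA 13.8%, 6.59% and 13.2%. CACGTG, the E-box known for MYC, was in 0 of 11 SR windows and 4 of 18 hnRNP windows (Hnrnpa3, Hnrnpd, Hnrnph2 and Hnrnpm), against 10.6% of windows of genes tested and 7.69% of all windows. The median window was 69% G and C among SR genes, 61.7% among hnRNP genes, 61% among genes tested and 55% among all, and the part of base composition in these shares was not tested.

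Changes in the families were small and ran both ways. At an adjusted p under 0.05 in edgeR's quasi-likelihood test, 8 of the 30 genes were called (26.7%), 5 higher and 3 lower in knockdown cells, while 40.1% of the 12269 genes tested were called, 20.5% higher and 19.6% lower. The share of the 30 members together was thus below that of all genes. By family it was 40% of SR genes, near the share of all genes, and 20% of hnRNP genes. The differences in share were not tested. The genes called higher were Hnrnpa1, Srsf7, Srsf6, Hnrnpf and Srsf3, and those called lower were Srsf5, Hnrnpr and Hnrnpa0. Among SR genes 3 of 10 rose and 1 fell, and among hnRNP genes 2 of 20 rose and 2 fell. Group ranges did not overlap for 8 of 30 genes (26.7%), 50% of SR and 15% of hnRNP genes, against 50.9% of all genes tested. These were Srsf3, Srsf5, Srsf6, Srsf7, Srsf9, Hnrnpa0, Hnrnpf and Hnrnpul2.

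The median log2 fold change, knockdown over WT, was 0.01 over the 30 members and 0.01 over all genes tested. The median size of the change, taken without its sign, was 0.15 among members and 0.33 among all genes tested. Changes beyond 0.5 in either direction were found for 0 of the 30 members and for 3981 of all genes tested (32.4%). The members that passed 0.5 when 1 library was left out were Hnrnpa1 (0.51 without knockdown A), Hnrnpr (-0.63 without knockdown B and -0.50 without WT C) and Hnrnpa3 (-0.54 without knockdown B, -0.52 without knockdown C and -0.56 without WT B), and Hnrnpa1 also passed it with library totals (0.51). Scaling mattered to the count. With library totals in place of the trimmed mean of M-values (TMM), 10 members were called higher and 1 lower, while over all genes 3893 were higher and 1568 lower and the median log2 fold change was 0.17. Without knockdown C, or without WT C, 1 member was called higher and 1 lower, Srsf7 and Srsf5 in both cases. Without WT A 3 were higher, and without knockdown B 5 were lower, among them Hnrnph2 and Hnrnpul2.

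**Figure D1:**
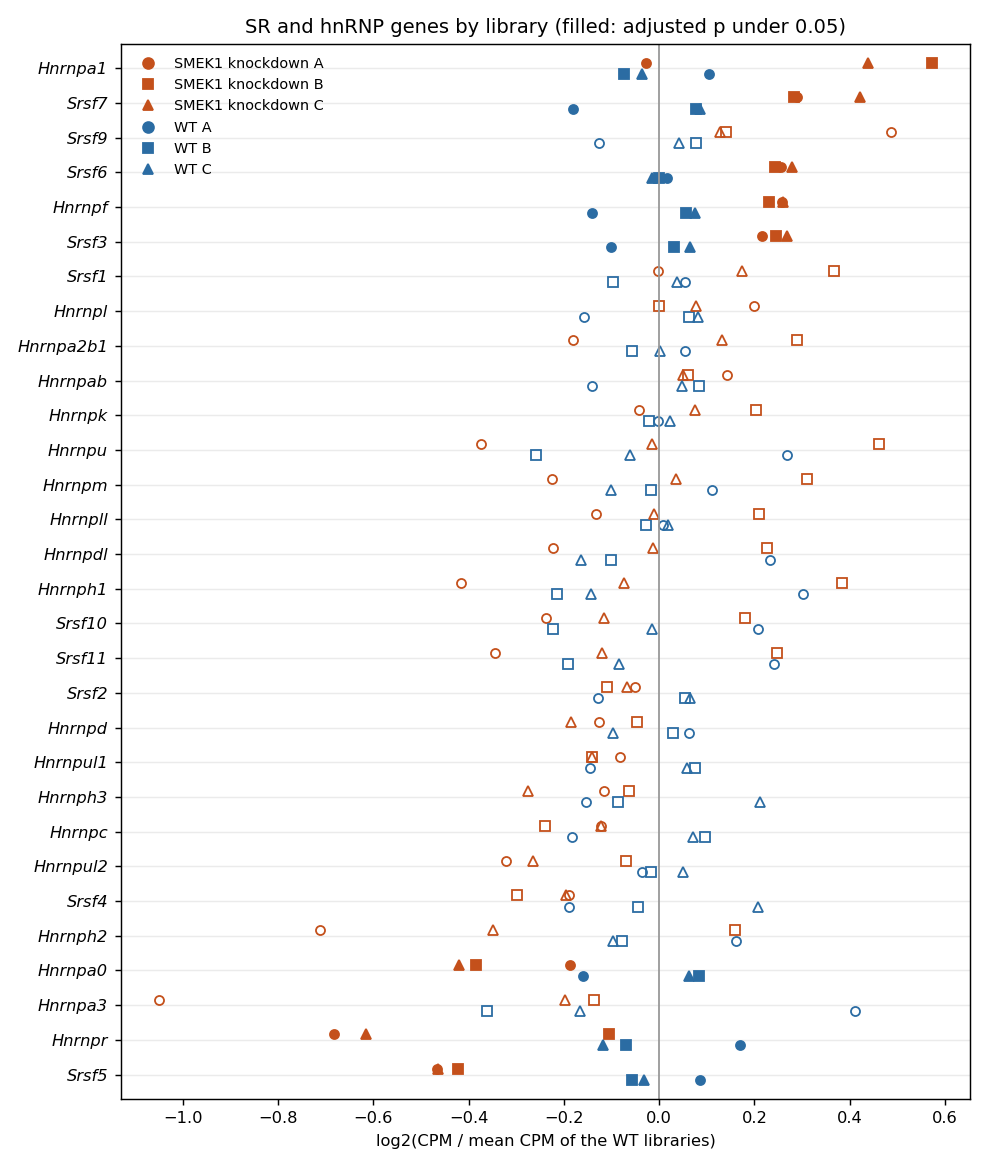
TMM-scaled CPM of each tested SR and hnRNP gene in every library, as log2 of its ratio to the mean of the WT libraries, ordered by log2 fold change. Orange symbols are SMEK1 knockdown libraries and blue symbols WT libraries, filled where the gene was called at an adjusted p under 0.05; Srsf6 and Srsf5 keep each group in a narrow band, while Hnrnpa3, Hnrnph1 and Hnrnpu spread widely within both groups.

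Srsf5 (SRp40), which has an RNA-recognition motif and a degenerate copy of it before its arginine-serine tail, was the most firmly lower member. The gene lies on chromosome 12 from 80945504 to 80950507 on the plus strand. Its level was 138, 143 and 139 CPM in knockdown A, B and C, against 203, 184 and 187 CPM in WT A, B and C. The groups stood well apart, and the lowest WT library exceeded the highest knockdown library. On the log2 scale Srsf5 fell by 0.45 (SE 0.07, 95% interval -0.61 to -0.29, adjusted p = 0.000562). It was called in 20 of 20 alternative analyses, with log2 fold changes of -0.48 to -0.29. These 20 include a fit, described below, that was chosen after the data were seen. A single pseudogene copy took counts equal to 7.26% of those of Srsf5 in knockdown cells and 8.07% in WT.

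Srsf6 (SRp55) has the same domain order as Srsf5 and rose while Srsf5 fell. It lies on chromosome 2 from 162931528 to 162937121 on the plus strand and had 245, 242 and 249 CPM in knockdown libraries, against 207, 205 and 203 CPM in WT. Each group spanned only a few CPM. Its log2 fold change was 0.26 (SE 0.07, 95% interval 0.11 to 0.41, adjusted p = 0.0120). The call was lost without knockdown C (adjusted p = 0.0524) or WT C (adjusted p = 0.0697). Srsf4 (SRp75), the closest relative of Srsf6 with 74.3% identity over 549 aligned coding bases, had 12.8, 11.8 and 12.7 CPM in knockdown cells and 12.7, 14.1 and 16.8 CPM in WT. Its groups overlapped and it was not called, with a log2 fold change of -0.23 (95% interval -0.55 to 0.09, adjusted p = 0.240).

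Srsf3 and Srsf7, which bind the export receptor Nxf1 and carry 1 RNA-recognition motif each, both rose. Srsf7 (9G8), which has a zinc knuckle beside that motif, lies on chromosome 17 from 80200089 to 80207305 on the minus strand. It had 153, 152 and 168 CPM in knockdown libraries, against 110.3, 132 and 133 CPM in WT. All knockdown libraries stood above all WT libraries, with WT A lowest. The log2 fold change of Srsf7 was 0.33 (SE 0.09, 95% interval 0.14 to 0.53, adjusted p = 0.0114), and the call held in 18 of 20 alternatives, including each that left out a library. Srsf3 (SRp20), the smallest SR protein, lies on the same chromosome from 29032628 to 29043373 on the plus strand and had 187, 191 and 194 CPM in knockdown cells, against 151, 165 and 169 CPM in WT. Its groups did not overlap, and the log2 fold change was 0.24 (SE 0.08, 95% interval 0.08 to 0.41, adjusted p = 0.0232). Leaving out knockdown C (adjusted p = 0.0748), WT A (0.0800) or WT C (0.0548) ended that call. The 4 pseudogene copies of Srsf3 took counts equal to 3.05% of its own in knockdown cells and 3.22% in WT.

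Srsf1 (SF2/ASF), long known for its choice of 5′ splice sites, and Srsf9 (SRp30c), its relative with a very short arginine-serine tail, had positive changes that missed the threshold. Srsf9 measured 199.6, 157 and 156 CPM in knockdown libraries, against 130.4, 150.3 and 146 CPM in WT. Its groups did not overlap, but knockdown A stood far above the other knockdown libraries. Srsf9 had a log2 fold change of 0.26 (SE 0.10, 95% interval 0.03 to 0.49, adjusted p = 0.0661), and it was called without knockdown B (adjusted p = 0.0194) and with library totals (0.00327), while without knockdown A the log2 fold change was 0.14 (adjusted p = 0.159). For Srsf1 the values were 109, 141 and 124 CPM in knockdown cells and 114, 102 and 112 CPM in WT, with knockdown A inside the WT range. Its log2 fold change was 0.19 (95% interval -0.02 to 0.40, adjusted p = 0.145; 0.0269 without knockdown A and 0.0328 with library totals; 0.11 and 0.371 without knockdown B).

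The remaining SR genes had overlapping groups and were not called. Srsf2 (SC35), which mostly stays in the nucleus and also acts in release of paused polymerase, had 191, 183 and 189 CPM in knockdown cells and 181, 205 and 207 CPM in WT, with a log2 fold change of -0.08 (95% interval -0.25 to 0.10). Srsf10 (SRp38), a repressor of splicing when dephosphorylated, had 37.1, 49.6 and 40.4 CPM in knockdown cells, against 50.5, 37.5 and 43.3 CPM in WT, a log2 fold change of -0.05 (95% interval -0.34 to 0.24). Srsf11, an SR-related protein, had 35.5, 53.6 and 41.5 CPM in knockdown cells, against 53.4, 39.5 and 42.6 CPM in WT, a log2 fold change of -0.05 (95% interval -0.38 to 0.28). In both Srsf10 and Srsf11 knockdown B and WT A were the high libraries of their groups. Summed over the 11 SR genes, the level was 1309, 1325 and 1311 CPM in knockdown cells, against 1213, 1235 and 1259 CPM in WT, and as a share of unscaled library totals 0.134%, 0.145% and 0.137% in knockdown cells, against 0.120%, 0.112% and 0.119% in WT. On both scales the groups did not overlap. With library totals the median log2 fold change of all genes tested was 0.17.

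Among the hnRNP A and B proteins, which have paired RNA-recognition motifs and a glycine-rich tail, Hnrnpa1 rose and Hnrnpa0 fell. Hnrnpa0, which binds AU-rich elements in cytokine mRNAs, is a gene without introns on chromosome 13 from 58125879 to 58128556 on the minus strand. Its level was 403, 351 and 343 CPM in knockdown cells, against 411, 486 and 479 CPM in WT. The ranges came close without overlapping, since knockdown A and WT A differed little. Hnrnpa0 fell by 0.33 in log2 (SE 0.09, 95% interval -0.53 to -0.12, adjusted p = 0.0164). Leaving out knockdown C (adjusted p = 0.0890), WT B (0.0536) or WT C (0.0808) ended the call, as did library totals (log2 fold change -0.17, adjusted p = 0.0764).

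Hnrnpa1, a silencer of exons that shuttles between nucleus and cytoplasm, lies on chromosome 15 from 103240432 to 103246692 on the plus strand. It had 146, 221 and 201 CPM in knockdown cells, against 159.7, 141 and 145 CPM in WT, so that knockdown A fell inside the WT range. The log2 fold change was 0.35 (SE 0.13, 95% interval 0.07 to 0.63, adjusted p = 0.0489), just past the threshold. Without knockdown B (adjusted p = 0.118), knockdown C (0.141), WT B (0.116) or WT C (0.140) it was not called, and 9 of 20 alternatives called it. Its 12 pseudogene copies took counts equal to 5.70% of its own in knockdown cells and 6.21% in WT.

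Hnrnpa2b1, an mRNA transport factor and reported reader of N6-methyladenosine, had 326, 451 and 404 CPM in knockdown cells and 383, 355 and 369 CPM in WT. Its groups overlapped, and the log2 fold change was 0.09 (95% interval -0.14 to 0.33, adjusted p = 0.520). Hnrnpa3 had 5.33, 10.0 and 9.62 CPM in knockdown cells, against 14.7, 8.59 and 9.83 CPM in WT, a log2 fold change of -0.40 with a wide 95% interval of -0.96 to 0.16 (adjusted p = 0.233; -0.17 if knockdown A and -0.14 if WT A was left out). This gene has 33 pseudogene copies, which held 1742 counts in knockdown cells and 1578 in WT, more than the 541 and 583 counts of Hnrnpa3 itself, so its level is uncertain. Hnrnpab, Hnrnpd (AUF1, a factor of mRNA decay) and Hnrnpdl were not called, with log2 fold changes of 0.08, -0.12 and 0.01 and overlapping groups.

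Proteins of the hnRNP F and H class bind runs of G through quasi-RNA-recognition motifs, and of these Hnrnpf was called. It lies on chromosome 6 from 117900324 to 117925622 on the plus strand and had 272, 266 and 272 CPM in knockdown cells, against 206, 236 and 239 CPM in WT. Every knockdown library was above every WT library, and WT A was lowest. For Hnrnpf the log2 fold change was 0.25 (SE 0.08, 95% interval 0.07 to 0.43, adjusted p = 0.0280), lost without knockdown C (adjusted p = 0.0744), WT A (0.0996) or WT C (0.0577). Hnrnph1, with 77.6% identity to Hnrnpf over 1115 aligned coding bases, ranged more within groups, at 44.9, 78.2 and 56.9 CPM in knockdown cells and 73.8, 51.6 and 54.2 CPM in WT. Its log2 fold change was 0.00 (95% interval -0.39 to 0.40, adjusted p = 0.990), and its sign differed in 11 of 20 alternatives. Hnrnph2, on the X chromosome, had 19.96, 36.5 and 25.7 CPM in knockdown cells, against 36.5, 31.0 and 30.5 CPM in WT, a log2 fold change of -0.25 (adjusted p = 0.288; -0.50 and 0.0119 without knockdown B, but -0.07 and 0.747 if knockdown A, -0.17 and 0.533 if WT A was left out, and -0.09 and 0.758 with library totals). Hnrnph3 was the least counted of the class, at 6.60 to 7.64 CPM in knockdown cells and 7.18 to 9.24 CPM in WT, and was not called (log2 fold change -0.15).

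Hnrnpr, a relative of Syncrip that binds mRNA and 7SK RNA, was the other hnRNP gene called lower. It lies on chromosome 4 from 136310942 to 136359447 on the plus strand. Hnrnpr has the greatest gene length given with the counts among the families, 22199 bases, which is shorter than that span. Its level was 26.6, 39.6 and 27.8 CPM in knockdown cells, against 48.0, 40.6 and 39.3 CPM in WT. Knockdown B lay inside the WT range, while knockdown A and C lay far under it. The log2 fold change was -0.44 (SE 0.15, 95% interval -0.77 to -0.12, adjusted p = 0.0328). It did not pass without knockdown A (adjusted p = 0.111) or knockdown C (0.128), without WT A (0.0970) or WT C (0.0506), nor when library totals were used (0.226).

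The other hnRNP genes were not called. Hnrnpc, which measures and packages nascent RNA through U-rich tracts, had 306, 281 and 305 CPM in knockdown cells and 293, 355 and 349 CPM in WT, a log2 fold change of -0.16 (adjusted p = 0.180; -0.25 and 0.0353 without WT A, but -0.10 and 0.433 without knockdown B, and 0.00 and 0.989 with library totals). It lies on chromosome 14 past 40 Mb, where the 288 genes tested had a median log2 fold change of -0.39, with 49.0% lower and 3.82% higher. Hnrnpul2 had 63.7, 75.8 and 66.2 CPM in knockdown cells, against 77.7, 78.7 and 82.4 CPM in WT, without overlap, a log2 fold change of -0.21 (95% interval -0.40 to -0.03, adjusted p = 0.0672; -0.27 and 0.0276 without knockdown B, but -0.05 and 0.672 with library totals). Hnrnpk, a KH-domain protein that binds C-rich tracts, Hnrnpl, which binds CA repeats, and its relative Hnrnpll had log2 fold changes of 0.08, 0.09 and 0.03. Hnrnpm, Hnrnpu (scaffold attachment factor A) and Hnrnpul1 had 0.06, 0.07 and -0.12. For Hnrnpu the 3 libraries of each group ranged widely, at 104, 186 and 134 CPM in knockdown cells and 163, 113 and 129.7 CPM in WT. Summed over the 20 hnRNP genes, the level was 3313, 3625 and 3415 CPM in knockdown cells and 3317, 3483 and 3499 CPM in WT, which overlap. As a share of unscaled totals it was 0.340% to 0.396% in knockdown cells and 0.316% to 0.330% in WT, which do not. With library totals the median log2 fold change of all genes tested was also above 0, at 0.17. The 20 highest genes took 10.7% to 11.2% of counts in knockdown cells and 13.2% to 13.6% in WT. Their part in these shares was not tested.

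Ratios of counts within a library do not depend on the scaling between libraries. Srsf6 had 1.77, 1.70 and 1.79 times the counts of Srsf5 in knockdown A, B and C, against 1.02, 1.11 and 1.08 times in WT A, B and C. The ratio was higher in each knockdown library than in any WT library. Srsf3 had 1.35, 1.34 and 1.40 times the counts of Srsf5 in knockdown cells and 0.742, 0.896 and 0.902 times in WT, without overlap. Counts are not scaled by length, and per length Srsf3 was below Srsf5 in every library, at 23.8, 23.6 and 24.4 FPKM against 34.9, 34.9 and 34.5 FPKM in knockdown cells, and at 19.0, 20.8 and 21.3 FPKM against 50.9, 46.0 and 46.7 FPKM in WT. Per length Srsf6 was above Srsf5 in knockdown cells, at 51.1, 49.1 and 51.2 FPKM, but below it in WT, at 43.1, 42.4 and 42.0 FPKM. Srsf7 over Srsf3, which rose together, was 0.815, 0.794 and 0.862 in knockdown cells and 0.733, 0.800 and 0.787 in WT, with overlapping ranges. Hnrnpa1 over Hnrnpa0 was 0.362, 0.628 and 0.587 in knockdown cells and 0.389, 0.290 and 0.302 in WT, with knockdown A inside the WT range. Since these pairs were picked for their changes, the ratios are a description and carry no test.

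**Figure D2:**
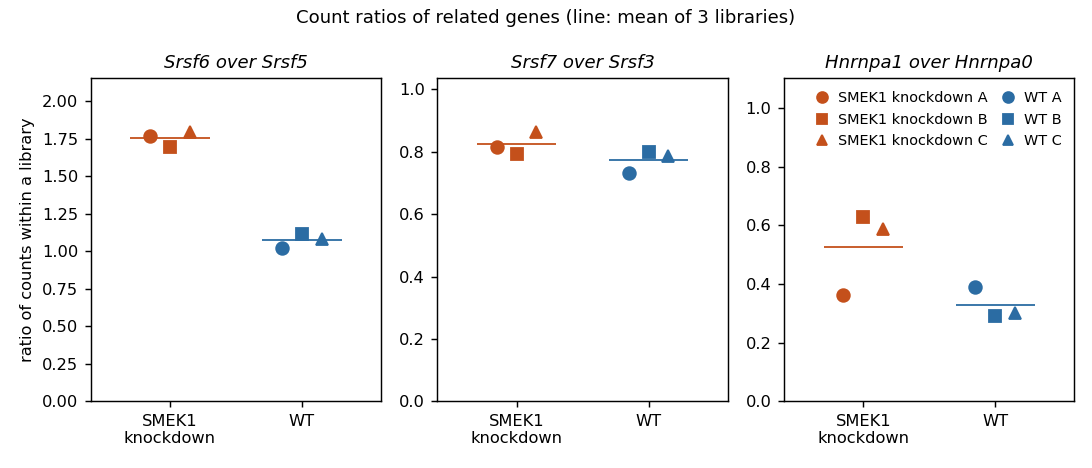
Ratio of counts of related genes within each library, from 0 on a linear axis, with SMEK1 knockdown libraries on the left and WT libraries on the right of each panel and a line at the mean of 3 libraries. The groups stand apart for Srsf6 over Srsf5 (mean 1.75 in knockdown cells and 1.07 in WT), overlap for Srsf7 over Srsf3, and knockdown A falls inside the WT range for Hnrnpa1 over Hnrnpa0.

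Levels of different genes were compared per length, in the FPKM (fragments scaled by gene length and library) that the authors deposited. Hnrnpab, which acts in mRNA transport, was the highest of the families, at 260.3, 239 and 241 FPKM in knockdown cells and 213, 248 and 242 FPKM in WT. Hnrnpa0 followed, with 135 ± 13.7 FPKM in knockdown cells and 171 ± 15.2 FPKM in WT (SD, n = 3 each). Among SR genes Srsf9 was highest, at 121, 92.5 and 93.4 FPKM in knockdown cells and 78.8, 90.6 and 88.2 FPKM in WT. The lowest were Hnrnpr, with 1.39 ± 0.30 FPKM in knockdown cells and 1.91 ± 0.21 FPKM in WT, and Hnrnpa3, with 1.52 ± 0.46 FPKM in knockdown cells and 2.04 ± 0.60 FPKM in WT (SD, n = 3 each). Mean levels thus ran between 1.39 and 247 FPKM in knockdown cells and between 1.91 and 234 FPKM in WT, whereas the log2 fold changes of the 30 genes tested lay between -0.45 and 0.35. The order of genes in FPKM depends on the gene length used, 22199 bases for Hnrnpr. Without scaling by length, Hnrnpr had a mean of 31.3 CPM in knockdown cells and 42.6 CPM in WT. Those means were above the 7.20 and 7.98 CPM of Hnrnph3.

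**Figure D3:**
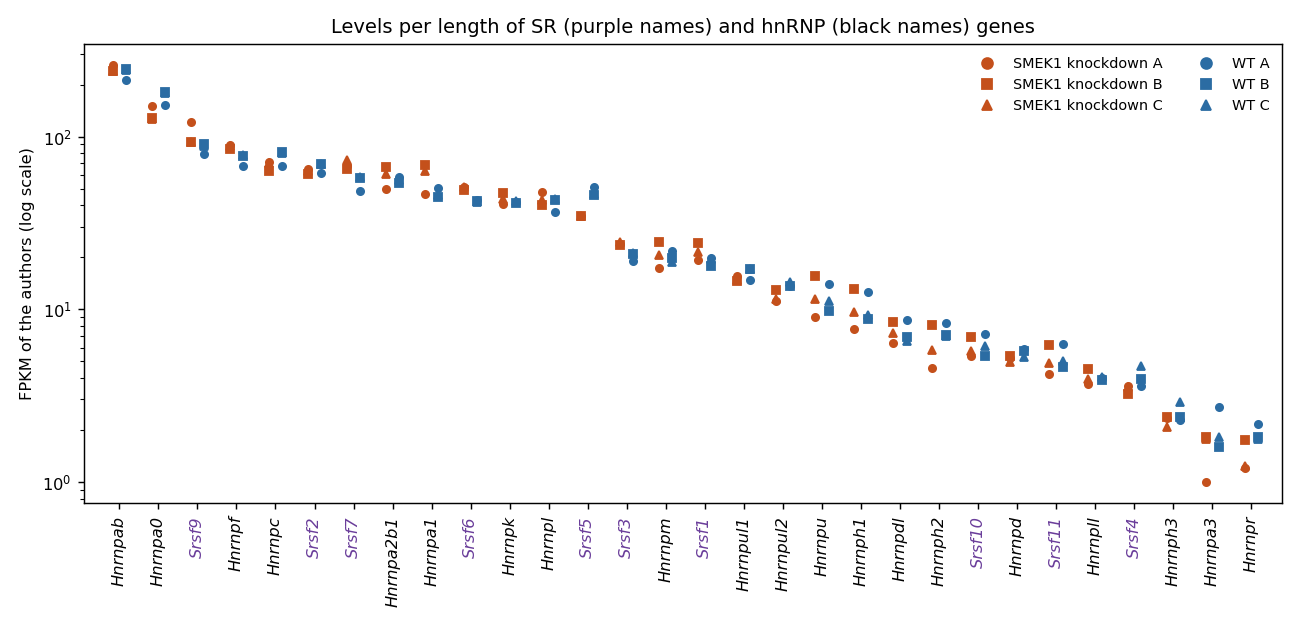
FPKM of the 30 detected genes on a log axis, ordered by mean level, with SMEK1 knockdown libraries (orange) left of WT libraries (blue) for each gene and SR names in purple. Hnrnpab sits highest, between 213 and 260.3 FPKM, and Hnrnpa3 and Hnrnpr lowest, between 0.993 and 2.72 FPKM.

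Libraries of the same group differed from each other along a shared axis. Across the 30 members, log2 CPM of knockdown B minus knockdown A ran between -0.35 (Srsf9) and 0.90 (Hnrnpa3), and WT A minus WT B ran between -0.28 (Hnrnpc) and 0.77 (Hnrnpa3). These differences share no library, and they correlated across genes at Pearson r = 0.90 among the 30 members and 0.62 among 9407 genes with a mean log2 CPM over 2; genes are not independent replicates. Both followed the gene length given with the counts, which is not the genomic span. Spearman rho was 0.47 for the knockdown difference and 0.50 for the WT difference among members, and 0.37 and 0.45 among the 9407 genes. The 15 longer members had a median knockdown difference of 0.37 and the 15 shorter ones -0.01, while the WT difference had medians of 0.11 and -0.14. The log2 fold change between the groups had a rho of -0.14 with length over the members.

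Most called members lay near 0 on this axis in knockdown cells, where B minus A was 0.04 for Srsf5, -0.01 for Srsf6, 0.03 for Srsf3, -0.01 for Srsf7, -0.03 for Hnrnpf and -0.20 for Hnrnpa0. In WT, A minus B was 0.14, 0.02, -0.13, -0.26, -0.20 and -0.24 for the same genes. In knockdown cells the called genes with overlapping groups lay farther out, at 0.60 for Hnrnpa1 and 0.58 for Hnrnpr. A wide spread within a group itself makes overlap more likely. In WT these 2 genes had 0.18 and 0.24, no farther from 0 than Srsf7 at -0.26. Malat1, a nuclear RNA, followed the same order of libraries, with 50.01, 82.6 and 69.9 CPM in knockdown A, B and C against 192, 89.5 and 134 CPM in WT A, B and C. The share of counts in mitochondrially encoded genes did as well, at 0.485%, 0.784% and 0.706% in knockdown cells and 0.840%, 0.629% and 0.699% in WT. Their part in the members' values was not tested. With the first principal component of the within-group deviations as a covariate, a fit chosen after the data were seen, 7 members were called higher and 7 lower, while 56% of all genes were called. This fit added Srsf1 and Srsf9 to the genes called higher, and Hnrnpa3, Hnrnpc, Hnrnph2 and Hnrnpul2 to those called lower, and the calls listed above all remained. The component was taken from the same values after the group means were removed, so kept or added calls are no independent support.

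**Figure D4:**
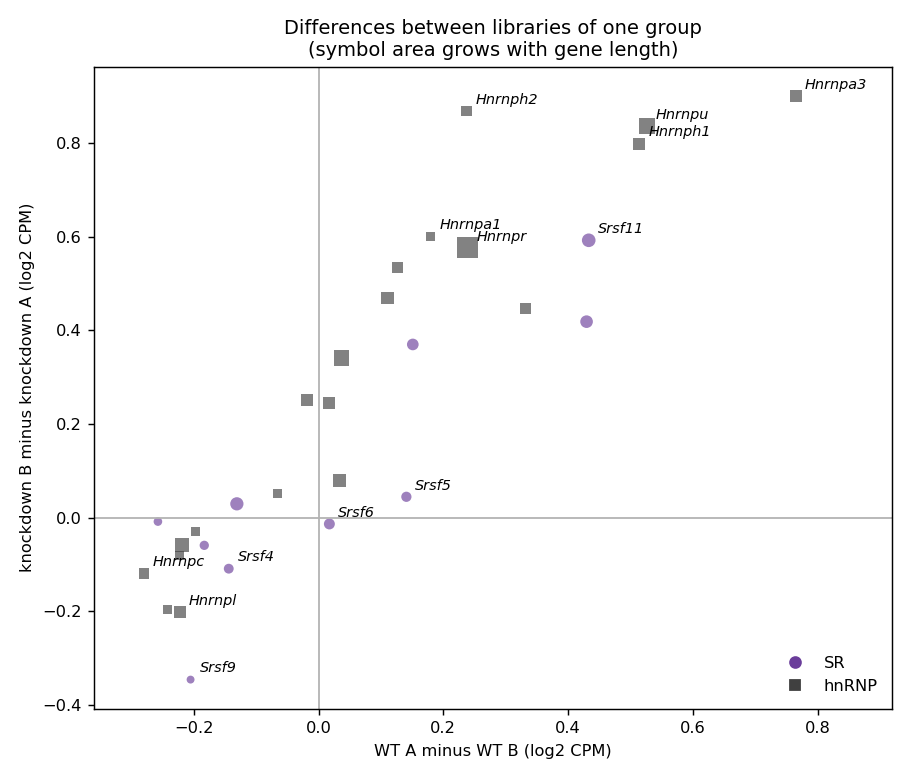
Difference in log2 CPM between libraries of the same group for each tested gene, knockdown B minus knockdown A on the vertical axis against WT A minus WT B on the horizontal axis, with symbol area growing with gene length. The genes fall along a rising line between Srsf9 at the lower left and Hnrnpa3 at the upper right, and Srsf5 and Srsf6 lie near the centre.

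Unproductive transcripts are annotated for many, though not all, of these genes. In GENCODE M21, which holds all 31 genes, 9 of 11 SR genes (81.8%) and 10 of 20 hnRNP genes (50%) have a transcript marked for nonsense-mediated decay, against 30.3% of 10792 protein-coding genes tested. Retained-intron transcripts are annotated for 22 of the 31 (71.0%) and for 61.3% of the protein-coding genes tested. Of the called members, Srsf3, Srsf5, Srsf6, Srsf7, Hnrnpa1 and Hnrnpr have a decay transcript, and Hnrnpf and Hnrnpa0 have none. A count per gene adds productive and unproductive transcripts, so a change in their balance was not analysed here.

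Some counts could be shared with other genes. Coding sequences of 13 members had at least 1 pseudogene copy of 90% identity or more, 66 copies in all, and 33 of these belong to Hnrnpa3. The 2 copies of Hnrnpk took counts equal to 12.7% of its own in knockdown cells and 12.9% in WT, while the 6 copies of Hnrnpf took 0.575% and 0.617%. Srsf2 overlaps Mfsd11 and Mettl23 on the opposite strand, Hnrnph3 overlaps Rufy2 on the opposite strand and Hnrnpm overlaps March2 on its own strand. The counts of Mfsd11, Rufy2 and March2 equalled 57.5%, 46.1% and 62.6% of those of the member over all libraries. Use of strand in the counting is not stated, so reads of such pairs cannot be told apart. For the 8 called members, no overlapping gene had more than 0.403% of the member's counts.

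Genes that work with the SR and hnRNP proteins were followed in 10 lists of splicing and RNA-processing factors. Of 210 genes tested 34 were higher and 46 lower (38.1% called, against 40.1% of all genes tested), or 67 and 21 with library totals and 21 and 29 without knockdown C. By list the share called lay between 25% (Prp19 complex) and 50% (arginine methyltransferases), and differences in share were not tested. In a list of 19 genes for kinases, phosphatases and importins 3 rose and 4 fell. Tnpo2, an importin, rose by 0.56 (SE 0.07, adjusted p = 9.81e-05) and Ppp1cc, a catalytic subunit of protein phosphatase 1, rose by 0.39 (SE 0.09, adjusted p = 0.00609), while Prpf4b, a kinase of the spliceosome, fell by 0.86 in log2 (SE 0.21, adjusted p = 0.00695). Srpk3, another kinase of this list, was also called higher. The call of Srpk3 was lost with limma on log2(FPKM + 1) and 1 count in any library (log2 fold change 0.57, adjusted p = 0.0659). That value is a change in log2(FPKM + 1), not on the scale of the other fold changes given here. The kinases Srpk1 and Clk1, which phosphorylate the arginine-serine tail, were not called, at -0.21 (adjusted p = 0.0814) and -0.33 (adjusted p = 0.348). Without knockdown A 5 of this list were higher; 1 was lower without knockdown C or WT C, and 2 without WT A or WT B. Protein arginine methyltransferases modify glycine-arginine tails of hnRNP proteins. Their list, which also held Wdr77 and Clns1a, neither a methyltransferase, had 4 of 10 genes higher, Clns1a among them, and 1 lower. Prmt3 rose by 0.59 (SE 0.10, adjusted p = 0.000452) and Prmt5, on chromosome 14 past 40 Mb, fell by 0.34 in log2 (SE 0.08, adjusted p = 0.00691). Higher genes of that list numbered 2 without knockdown C or WT C and 1 without WT A.

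Other proteins with arginine-serine tails included 3 of 26 higher and 6 lower (3 lower without knockdown A). Srrm1, a coactivator of enhancer-bound SR proteins, fell by 0.62 in log2 (SE 0.08, adjusted p = 8.66e-05), and Tra2b, a close relative of SR proteins, rose by 0.63 (SE 0.10, adjusted p = 0.000617). Tra2b lies on chromosome 16, where the 377 genes tested had a median log2 fold change of 0.40. Among 39 other hnRNP-like proteins 7 rose and 7 fell, with 3 lower without knockdown C and 4 without WT B or WT C. Raly, a relative of Hnrnpc, rose by 0.69 (SE 0.09, adjusted p = 8.58e-05), and the RNA helicase gene Ddx17, whose protein works with hnRNP H and F in splicing, fell by 0.87 in log2 (SE 0.09, adjusted p = 1.43e-05).

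The 4 lists of the core spliceosome had more genes lower than higher on the TMM scale, by a single gene in the tri-snRNP list. Shares called were 47.1% for Sm and LSm, 44% for U1, U2 and U2AF, 47.4% for the tri-snRNP and 25% for Prp19. Over all genes tested 40.1% were called, 20.5% higher and 19.6% lower, and the differences were not tested. Of 25 proteins of the U1 and U2 snRNPs and U2AF 2 rose and 9 fell, with 4 lower without knockdown C, 5 without WT C, and 1 higher without knockdown C or either of WT A and WT C. With library totals that list had 9 higher and 2 lower, the Sm and LSm list 4 and 4, and the tri-snRNP and Prp19 lists 7 and 3 each, so that the order turned or ended. Snrnp70, the U1 protein that SR proteins contact, fell by 0.47 (SE 0.08, adjusted p = 0.000843) and Sf3b5 fell by 0.67 (SE 0.08, adjusted p = 4.58e-05) on the log2 scale. The 17 Sm and LSm proteins had 2 higher (1 without WT C) and 6 lower, and the 19 proteins of the U4/U6.U5 tri-snRNP had 4 higher and 5 lower. The order of the tri-snRNP list did not hold without knockdown A (4 higher and 3 lower) or knockdown B (6 and 3), and the counts were level with upper-quartile scaling (5 and 5), a filter of 1 count (5 and 5) or 1 CPM (4 and 4), or protein-coding genes alone (4 and 4). In that list 2 were higher without knockdown C or either of WT A and WT C. Eftud2, a GTPase of that particle, fell by 1.32 in log2 (SE 0.08, adjusted p = 3.81e-07), to 58.5 ± 2.56 CPM in knockdown cells, against 147 ± 11.0 CPM in WT (SD, n = 3 each).

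The Prp19 complex and step factors had 2 of 24 higher and 4 lower, with 5 higher and 4 lower under upper-quartile scaling, 4 higher without knockdown B, 1 without knockdown C or either of WT A and WT C, and 7 lower without knockdown A. Prpf19 fell by 0.43 in log2 (SE 0.09, adjusted p = 0.00206). Of 20 genes of the exon junction complex and mRNA export 4 rose and 3 fell (1 higher without knockdown C, 2 without WT A). Nxf1, the export receptor that Srsf3 and Srsf7 bind, fell by 0.71 in log2 (SE 0.08, adjusted p = 2.47e-05), with 71.2 ± 4.00 CPM in knockdown cells and 117 ± 2.46 CPM in WT (SD, n = 3 each). Of 12 factors of nonsense-mediated decay 3 rose and 2 fell (1 lower without knockdown C). Upf1, the helicase of that pathway, fell by 0.95 in log2 (SE 0.08, adjusted p = 4.01e-06), with 57.1 ± 3.68 CPM in knockdown cells and 110.5 ± 4.01 CPM in WT, while Smg5 rose by 0.51 (SE 0.08, adjusted p = 0.000283).

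**Figure D5:**
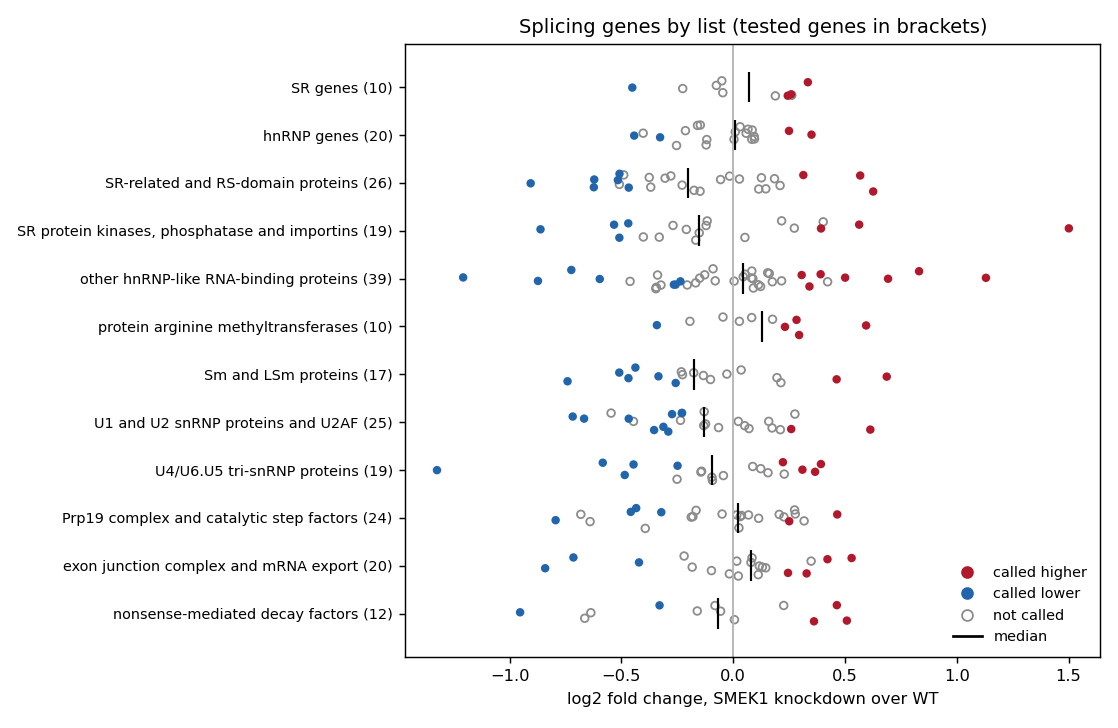
Log2 fold change, SMEK1 knockdown over WT, of each tested SR and hnRNP gene (top rows) and of the genes of 10 splicing lists, with filled symbols called higher (red) or lower (blue) at an adjusted p under 0.05, open symbols not called, and a black bar at the median. SR and hnRNP genes lie within 0.5 of 0, while every other list reaches past it in at least 1 direction.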

How the data were processed

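The authors deposited 2 gene-level tables for 6 libraries, raw counts of 54532 Ensembl genes and their FPKM values. A SMARTER mRNA kit was used on column-purified total RNA, per the labels' protocols, and the genome build was GRCm38 (mm10), per the submitters' processing notes. Aligner, counting program and use of strand: not given in the sources used here. In the deposited FPKM a count is divided by gene length and a library constant, 0.911 to 1.12 times its total, so they carry a scaling of their own.

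Counts of all genes were fitted together with edgeR 4.0.16 (R 4.3.3). After filterByExpr 12269 genes were left, which were scaled by TMM and tested with glmQLFit and glmQLFTest with no covariate, adjusted by Benjamini-Hochberg over every one of them and called under 0.05. All adjusted p-values come from this quasi-likelihood test unless another tool is named. Each fold change is a log2 ratio, knockdown over WT, and CPM are TMM-scaled. The standard error (SE) is the fold change divided by the root of the F statistic. The 95% interval uses the total degrees of freedom of that test, residual plus prior, where the prior part is borrowed across genes. No reads carried stated molecular identifiers, so the limits for a count of 0 cover counting error only. Alternatives used DESeq2 1.42.0, limma 3.58.1 on counts or on log2(FPKM + 1) and log2(FPKM + 0.1), other scalings, filters and thresholds, a replicate block, and leaving out each library. The 20 alternatives also count the fit with a within-group component, which was chosen after the data were seen and is no independent support. The scripts were tested on simulated data.

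Members, lists and the motifs were chosen with earlier results of these data known. Values in all libraries are given for called members without overlap and for the highest member of each family; other members shown in full were chosen after their values were seen. List genes named with a fold change are among the 3 with the smallest adjusted p in a direction, except Srpk1, Clk1 and Tnpo1. Qki and Ddx39a had no row under those symbols. Pseudogene copies were found with BLASTN 2.17.0 against GENCODE M21 pseudogene transcripts (90% identity over 50% of the coding sequence), and 29 of the 31 members have the same start and end in that annotation as in the count table. Protein sequences were not used here.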

Additional observations from a re-analysis of the deposited data

How the results depend on the processing

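None of the 8 called SR and hnRNP genes changed sign in any of the 20 alternatives. Of 600 fold changes of single members under alternatives, 46 lost the call, 19 gained it, and 34 had another sign with a call in neither analysis. Limits rest on 3 libraries a group and on scaling: the median log2 fold change of all genes was 0.01 with TMM and 0.17 with library totals.

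Leaving out 1 library gave 1 to 6 members higher and 1 to 5 lower (5 and 3 with all libraries), 1869 to 2586 genes of the whole table higher and 1782 to 2365 lower (2515 and 2403), and 21 to 38 list genes higher and 29 to 46 lower (34 and 46). Library totals gave 10 members higher and 1 lower, 3893 and 1568 genes, and 67 and 21 list genes. At an adjusted p under 0.01 there were 0 members higher and 1 lower, 1582 and 1599 genes, and 18 and 24 list genes. limma on log2(FPKM + 1) with 1 count in any library gave 2 and 1 members and 18 and 25 list genes. With the within-group component, chosen after seeing the data and built from the same values, 7 members and 75 list genes were lower. The cause of these shifts was not tested.

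Libraries with the same letter did not deviate alike: deviations from the group means correlated at -0.56 for A, -0.58 for B and -0.04 for C across 9407 genes. What the letters mark is not stated, so these values cannot show whether libraries were prepared in pairs. The replicate block gave 1 member higher (Srsf7) and 1 lower (Srsf5), 20 list genes higher and 26 lower, and 3326 genes called in all. DESeq2 called the same 8 members as edgeR.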
